A study of Oryctolagus cuniculus with 17 samples.

Results

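The genes described here move salt and water across the epithelium and the vessels of the lung. They were chosen by name as 8 genes of alveolar fluid transport, and for each name the entry with the highest total count in the count table was taken. The rule selected an entry for 7 of the 8, among 13827 entries in all: the sodium channel subunits SCNN1A, SCNN1B and SCNN1G, the sodium pump subunit ATP1B1, the water channel AQP1, the chloride channel CFTR and the chloride importer SLC12A2. The rule selected no entry for AQP5, the water channel of alveolar type 1 cells, which is not analysed here. All 7 passed the filter on low counts.

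Before birth the lung is filled with liquid that the epithelium secretes, driven by chloride that enters the cell through SLC12A2 at its base and leaves towards the airspace through channels such as CFTR. At birth the direction turns: sodium enters the alveolar cell from the airspace through the epithelial sodium channel (ENaC), built from the subunits that SCNN1A, SCNN1B and SCNN1G encode, the Na,K-ATPase pumps it out at the other side, and water follows. AQP1 is the water channel of the lung's small vessels and of red cells. Preterm birth and high oxygen are both settings in which this clearance of fluid is of clinical interest.

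The animals were New Zealand White rabbit pups, all of them preterm and taken by C-section at gestation day 28, then raised in incubators on milk replacer. Pups kept at 95% O2 formed the hyperoxia groups HT3, HT5 and HT7, and pups kept at 21% O2 the normoxia groups NT3, NT5 and NT7, where the number is the postnatal day of collection. Each group had 3 samples apart from HT5, which had 2, and each sample was RNA of a whole right lung homogenate, read as stranded poly(A) libraries with paired ends. No group was born at term, and the labels give neither litter nor sex, so these could not be set against oxygen. The labels name no animal for a sample, and p-values measure the spread between the samples.

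With each locus counted once, the 17 libraries held between 13123731 and 18111086 counts. Markers of the lung were present throughout, with the surfactant gene SFTPC between 4033 and 12324 CPM and the type 1 marker AGER between 669 and 4760 CPM. Genes of striated muscle, summed over 7 entries, reached 360 CPM in HT3 replicate 2 and 314 CPM in HT5 replicate 1, against at most 45.9 CPM in any other library, so results of days 3 and 5 were also computed without these libraries. CPM stands for read counts scaled to a common library total, here with edgeR's TMM factors. They are not divided by gene length, so a level is compared between samples and never between genes.

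Differences are log2 fold changes (log2FC) of hyperoxia against normoxia from edgeR's quasi-likelihood test, with their standard error (SE) and a p-value adjusted over the 13142 entries tested. A gene is called changed at an adjusted p under 0.05. No fluid transport gene was called on day 3, where 1.02% of all entries were (0.51% higher and 0.51% lower). The SCNN1G difference was the single one of the 7 with an unadjusted p under 0.05 on that day, a level that 15.4% of all entries passed. On day 5, SCNN1A and SCNN1G were higher and AQP1 lower, 2 and 1 of 7, beside 15.9% and 15.4% of all entries in those directions and 31.3% in either. On day 7, SCNN1A, SCNN1G and ATP1B1 were higher and AQP1 was lower, 3 and 1 of 7, beside 23.7% and 23.6% of all entries and 47.3% in either direction. Of the libraries with muscle genes, leaving out HT3 replicate 2 gave 0 calls on day 3, and leaving out HT5 replicate 1 gave SCNN1A and AQP1 on day 5. Without HT5 replicate 2, ATP1B1 was the 1 gene called on day 5. The median log2FC of the 7 genes was 0.31 on day 3, 0.21 on day 5 and -0.25 on day 7, and that of all entries lay between -0.02 and 0.00. The study's own stricter rule asked for an adjusted p under 0.01 with a log2FC beyond 2 in either direction, in DESeq2. With these cut-offs on the edgeR test, 0 of the 7 genes passed on any day. Of all entries, 0.0533%, 1.56% and 4.53% passed on days 3, 5 and 7, which are not the study's own counts.

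**Figure D1:**
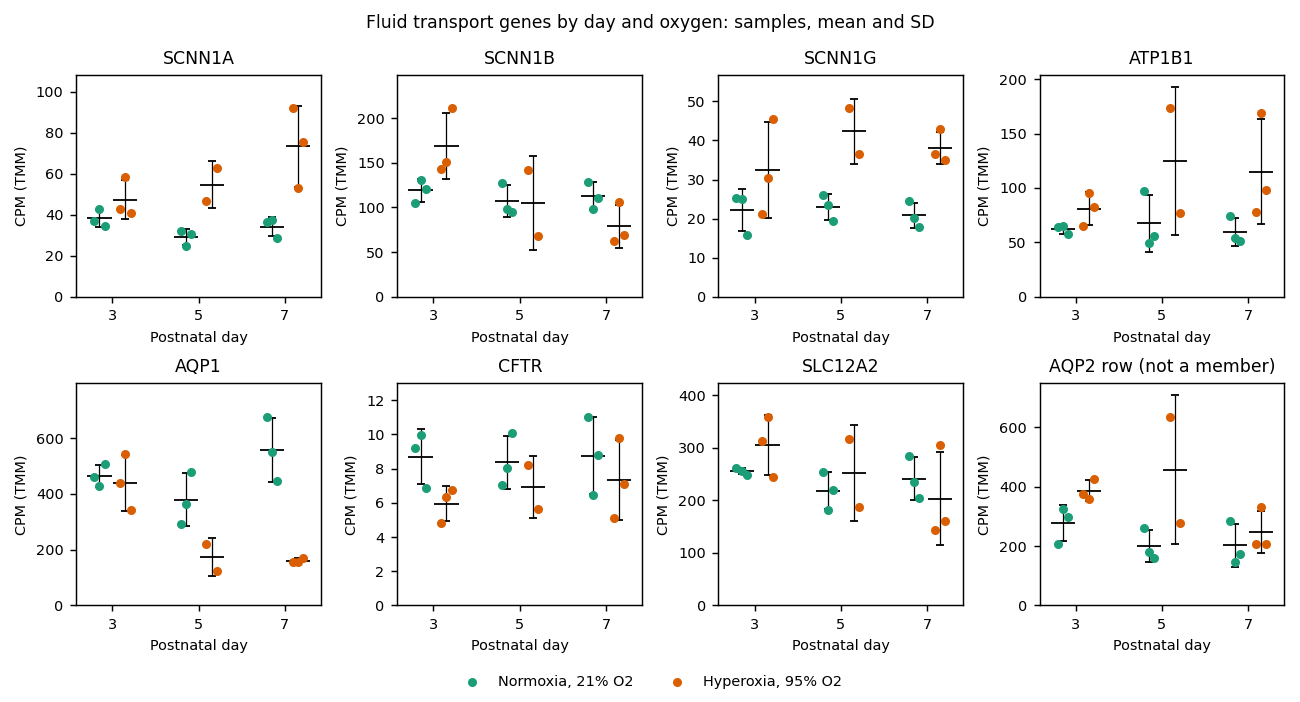
Level of each gene in CPM (vertical axes, each from 0) by postnatal day (horizontal axes). Points are samples, green in normoxia and orange in hyperoxia, and bars give the mean with its SD, n = 3 and n = 2 for hyperoxia on day 5. SCNN1A separated from normoxia on days 5 and 7, AQP1 fell to between 155 and 170 CPM in all HT7 samples, and SLC12A2 and CFTR of the day 7 groups overlapped. The last panel is the entry named AQP2.

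SCNN1A encodes the alpha subunit of ENaC, without which the channel carries little current. It lies at chr8:32420653-32443570 on the minus strand of OryCun2.0 (ENSOCUG00000010152). In normoxia its level was 37.0, 42.9 and 34.5 CPM in NT3, 32.0, 24.8 and 30.4 CPM in NT5 and 36.3, 37.6 and 28.7 CPM in NT7. In hyperoxia it was 42.6, 58.6 and 41.0 CPM in HT3, 46.6 and 62.8 CPM in HT5 and 91.8, 52.8 and 75.3 CPM in HT7. The groups overlapped on day 3, and every hyperoxia sample lay above every normoxia sample on days 5 and 7. In the same direction, 26.5% and 27.3% of all entries were separated in this way on days 5 and 7.

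The rise of SCNN1A was 1.88-fold on day 5 (log2FC 0.91, SE 0.22, edgeR adjusted p = 0.00711) and 2.14-fold on day 7 (log2FC 1.10, SE 0.20, edgeR adjusted p = 0.000489). On day 3 its log2FC was 0.31 (SE 0.20, edgeR adjusted p = 0.485). The call of day 7 stood whichever sample was left out, with log2FC from 0.91 to 1.30. The call of day 5 was lost without HT5 replicate 2 (log2FC 0.66, adjusted p = 0.132), a fit that leaves 1 HT5 sample and assumes that it varies like the other groups. Without HT5 replicate 1, the library with muscle genes, the log2FC was 1.11 and the call stood.

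SCNN1G encodes the gamma subunit, which carries a site that proteases cleave to open the channel. It lies at chr6:14008262-14035633 on the plus strand (ENSOCUG00000017394), on the same chromosome as SCNN1B. Its level was 25.4, 25.0 and 15.9 CPM in NT3, 26.0, 23.5 and 19.4 CPM in NT5 and 24.4, 20.0 and 17.9 CPM in NT7. It was 21.1, 30.4 and 45.6 CPM in HT3, 48.2 and 36.4 CPM in HT5, and 36.5, 42.8 and 35.0 CPM in HT7. HT3 had 1 sample within the range of NT3 and 2 above it, while the 5 later hyperoxia samples all lay above the normoxia samples of their day.

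SCNN1G was 1.84-fold higher on day 5 (log2FC 0.88, SE 0.27, edgeR adjusted p = 0.0238) and 1.83-fold higher on day 7 (log2FC 0.87, SE 0.25, edgeR adjusted p = 0.00978). The day 7 call stood in each fit that left out a sample, with adjusted p of at most 0.0426. That of day 5 was lost without HT5 replicate 1 (log2FC 0.67, adjusted p = 0.146), HT5 replicate 2 (1.05, adjusted p = 0.0633), NT5 replicate 2 (0.91, adjusted p = 0.0512) or NT5 replicate 3 (0.77, adjusted p = 0.0811).

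SCNN1B, the beta subunit, was not called on any day. It lies at chr6:14108688-14165993 on the plus strand (ENSOCUG00000008401) and overlaps COG7 on the other strand by 12344 bp. COG7 had a median of 690 counts. The strand setting used for counting was not given in the sources used here, so reads of the overlap may not be told apart. SCNN1B stood at 105, 131 and 121 CPM in NT3, 127, 97.7 and 95.2 CPM in NT5 and 129, 97.9 and 110 CPM in NT7. In hyperoxia it stood at 143, 151 and 211 CPM in HT3, 142 and 68.0 CPM in HT5, and 61.9, 106 and 68.7 CPM in HT7. The HT3 samples all lay above those of NT3, as 12.8% of all entries did, whereas 2 of the 3 HT7 samples lay below every NT7 sample.

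The log2FC of SCNN1B was 0.50 on day 3 (SE 0.26, edgeR adjusted p = 0.372), -0.03 on day 5 (SE 0.29, edgeR adjusted p = 0.954) and -0.51 on day 7 (SE 0.26, edgeR adjusted p = 0.118). HT7 replicate 2, at 106 CPM, decided the call of day 7: without it the log2FC was -0.77 (adjusted p = 0.0238). On day 5, the difference was 0.39 without HT5 replicate 2 and -0.65 without HT5 replicate 1.

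ATP1B1 encodes the beta subunit that the Na,K-ATPase needs to reach the cell surface. The gene is at chr13:23858236-23892960 on the minus strand (ENSOCUG00000006867) and overlaps NME7 on the other strand by 12540 bp, with a median of 245 counts for NME7. Its level was 64.3, 64.9 and 57.4 CPM in NT3, 97.1, 49.3 and 55.8 CPM in NT5 and 74.6, 53.6 and 50.8 CPM in NT7. Hyperoxia samples read 64.9, 95.0 and 82.5 CPM on day 3, 173 and 76.6 CPM on day 5, and 77.6, 169 and 98.0 CPM on day 7. The ranges overlapped on days 3 and 5, and all HT7 samples lay above those of NT7, though HT7 replicate 1 did so by a small margin.

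On day 7, ATP1B1 was 1.93-fold higher in hyperoxia (log2FC 0.94, SE 0.34, edgeR adjusted p = 0.0324). That call was lost without HT7 replicate 2 (log2FC 0.57, adjusted p = 0.165), NT7 replicate 2 (0.87, adjusted p = 0.0967) or NT7 replicate 3 (0.84, adjusted p = 0.104). On day 5 the log2FC was 0.89 (SE 0.37, edgeR adjusted p = 0.0796), with adjusted p = 0.0409 by DESeq2, 0.0244 without NT5 replicate 1 (log2FC 1.25) and 0.0471 without HT5 replicate 2 (log2FC 1.35). The day 3 value was 0.38 (SE 0.33, edgeR adjusted p = 0.643).

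AQP1 had the log2FC furthest from 0 among the 7 genes on days 5 and 7, and it was negative. It lies at chr10:15208745-15260141 on the plus strand (ENSOCUG00000022666). Its level was 461, 428 and 507 CPM in NT3, 292, 364 and 480 CPM in NT5 and 675, 549 and 445 CPM in NT7. Hyperoxia samples had 439, 541 and 341 CPM in HT3, 221 and 125 CPM in HT5, and 155, 156 and 170 CPM in HT7. HT3 spanned the NT3 range, whereas the samples of HT5 and HT7 all lay below the normoxia samples of their day, as 29.2% and 27.2% of all entries did.

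In HT5, AQP1 stood at 0.457 of its NT5 level (log2FC -1.13, SE 0.26, edgeR adjusted p = 0.00525), and in HT7 at 0.288 of its NT7 level (log2FC -1.80, SE 0.23, edgeR adjusted p = 3.29e-05). On day 3 the log2FC was -0.08 (SE 0.22, edgeR adjusted p = 0.908). The difference between these days was itself past the threshold (day 7 log2FC minus day 3 log2FC -1.72, SE 0.32, edgeR adjusted p = 0.00325). AQP1 was the 1 gene of the 7 called in that comparison of days, in which 20.4% of all entries were called, 9.46% higher and 10.9% lower. Leaving out any sample kept the day 7 log2FC between -1.93 and -1.63. The call of day 5 was lost without HT5 replicate 2 (log2FC -0.80, adjusted p = 0.102) and when the fit held the HT5 and NT5 samples alone (adjusted p = 0.0539).

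Marker genes of endothelial and red cells, which both express AQP1, were also lower in part. On day 3, where AQP1 was at -0.08, 1 of 10 endothelial markers tested was lower (TIE1, a receptor kinase, log2FC -0.87, edgeR adjusted p = 0.00266), beside 0.51% of all entries. The median of the 10 was -0.36, and 6 of them had all HT3 samples below NT3 and 2 had all above, as 13.9% and 12.8% of all entries did. Of the same 10, 6 were lower and 2 higher on day 5 (median log2FC -0.96), and 7 were lower and 1 higher on day 7 (median -1.51), beside 15.4% and 23.6% of all entries that were lower and 15.9% and 23.7% that were higher. Their summed level was 1136 to 1585 CPM in HT7 against 2715 to 3268 CPM in NT7, and it was 1641 to 1740 CPM in HT5 against 2684 to 3278 CPM in NT5. Of 8 red cell markers, 0 were called on day 3, 2 were lower on day 5 and 5 on day 7, with a median log2FC of 0.06, -0.11 and -1.26 and sums of 63.3 to 83.7 CPM in HT7 and 138 to 256 CPM in NT7. The red cell marker ALAS2 and the endothelial marker CDH5 were above 0 in all 17 samples, as were the other markers with an entry in both lists. Their part in the change of AQP1 was not tested. In a homogenate, fewer cells of a type and less RNA per cell cannot be told apart.

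The genes of the epithelium gave a divided picture. Of 14 general epithelial markers, 9 were higher and 2 lower on day 7, with a median log2FC of 1.02 and sums of 2346 to 3188 CPM in HT7 against 1718 to 2123 CPM in NT7. On day 5, 5 of the 14 were higher and 0 lower. Of all entries, 23.7% were higher and 23.6% lower on day 7, and 15.9% and 15.4% on day 5. Of 11 type 1 markers, 8 were lower and 0 higher on both days, with a median of -2.13 on day 7 and sums of 2749 to 3481 CPM in HT7 against 9048 to 9848 CPM in NT7. Of 11 type 2 markers, 1 was higher and 3 were lower on day 7, and their sums of 13975 to 30427 CPM in HT7 included the whole NT7 range of 18188 to 24660 CPM. Every marker with an entry in these lists was above 0 in all samples. The part of these cell types in the rises of SCNN1A, SCNN1G and ATP1B1 was not tested.

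**Figure D2:**
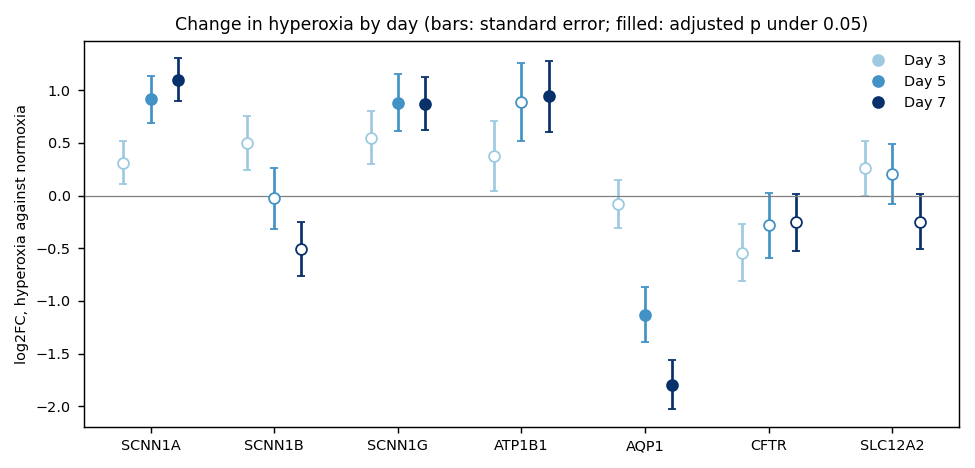
The log2FC of hyperoxia against normoxia for each gene (vertical axis) on days 3, 5 and 7, from light to dark, with bars for the SE. Filled points had an adjusted p under 0.05: SCNN1A, SCNN1G and AQP1 on days 5 and 7 and ATP1B1 on day 7. AQP1 fell to -1.80, and the SCNN1B values ran from 0.50 to -0.51.

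CFTR, the chloride channel of the apical membrane that is mutated in cystic fibrosis, was the gene with the fewest counts of the 7. It spans chr7:27447979-27748244 on the minus strand (ENSOCUG00000010733) and overlaps CTTNBP2 on the other strand by 2790 bp, with a median of 100 counts for CTTNBP2. CFTR stood at 9.19, 9.98 and 6.88 CPM in NT3, 7.03, 8.02 and 10.1 CPM in NT5 and 11.0, 6.48 and 8.78 CPM in NT7. In hyperoxia it was 4.79, 6.31 and 6.77 CPM in HT3, 8.18 and 5.63 CPM in HT5, and 5.13, 9.80 and 7.12 CPM in HT7. All HT3 samples lay below the NT3 samples, as for 13.9% of all entries, and the later groups overlapped. The log2FC was -0.54 on day 3 (SE 0.27, edgeR adjusted p = 0.361), -0.28 on day 5 (SE 0.31, edgeR adjusted p = 0.507) and -0.25 on day 7 (SE 0.27, edgeR adjusted p = 0.465).

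SLC12A2 encodes NKCC1, which brings chloride into the cell together with sodium and potassium. It lies at chr3:11738386-11829176 on the plus strand (ENSOCUG00000001808). Its level was 261, 256 and 249 CPM in NT3, 254, 182 and 219 CPM in NT5 and 284, 235 and 204 CPM in NT7. It was 313, 358 and 245 CPM in HT3, 317 and 187 CPM in HT5, and 144, 304 and 160 CPM in HT7. The groups overlapped on all days, and in HT7 the level of replicate 2 was well above those of the other two. The log2FC was 0.26 on day 3 (SE 0.26, edgeR adjusted p = 0.69), 0.21 on day 5 (SE 0.29, edgeR adjusted p = 0.621) and -0.25 on day 7 (SE 0.26, edgeR adjusted p = 0.452). Without HT7 replicate 2 the day 7 value was -0.65 and was called (adjusted p = 0.0216).

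The hyperoxia samples of days 5 and 7 differed among themselves. HT5 replicate 1 and HT7 replicate 2 were the highest of their groups in ATP1B1, SLC12A2, CFTR, SCNN1B and SCNN1G. In SCNN1A they were the lowest of their groups. AQP1 was higher in HT5 replicate 1 than in HT5 replicate 2, and HT7 replicate 2 lay between the other HT7 samples. HT5 held only 2 samples, so its highest was the higher of a pair. Set against the mean log2 CPM of normoxia on the same day, ATP1B1 stood at 1.43 in HT5 replicate 1 and 1.52 in HT7 replicate 2, and between 0.25 and 0.74 in the other 3 samples of these groups. SCNN1A stood at 0.69 and 0.64 in the same pair of samples and between 1.12 and 1.43 in the other 3. SLC12A2 was above the normoxia mean in that pair, at 0.55 and 0.35, and below it in the other 3, at -0.21, -0.73 and -0.58.

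The summed type 2 markers split the same samples. They reached 33892 CPM in HT5 replicate 1 and 30427 CPM in HT7 replicate 2, and 13100, 13975 and 16834 CPM in HT5 replicate 2, HT7 replicate 1 and HT7 replicate 3. In normoxia, NT5 replicate 1 and NT7 replicate 1 had the highest type 2 sums of their groups, 25750 and 24660 CPM, and also the highest ATP1B1 and SLC12A2 levels. CFTR was lowest of its group in NT5 replicate 1 and highest in NT7 replicate 1, and SCNN1A was highest in NT5 replicate 1, unlike in HT5 and HT7. NT3 replicate 1 had the highest type 2 sum of NT3, 21432 CPM, and the highest SLC12A2, but not the highest ATP1B1. On day 3 all HT3 samples, at 25926 to 29447 CPM, had higher type 2 sums than the NT3 samples, at 18473 to 21432 CPM. Of the 11 type 2 markers tested, 0 were called on day 3, beside 1.02% of all entries. For 4 of them all HT3 samples lay above NT3, as for 12.8% of all entries. HT3 replicate 2 had the highest type 2 sum of its group, with the highest ATP1B1, SLC12A2 and also SCNN1A. The part of type 2 cells in this spread was not tested.

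**Figure D3:**
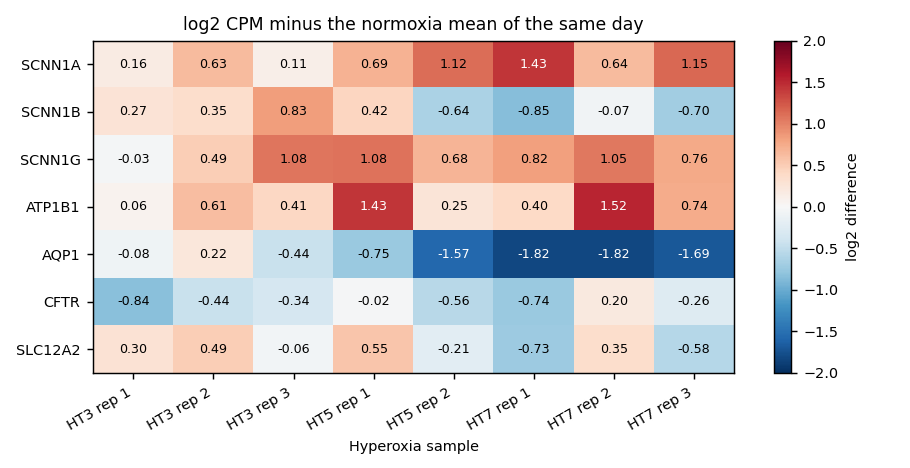
Each hyperoxia sample (columns) against the mean of the normoxia samples of its day, as a difference in log2 CPM (colour scale and numbers, red above and blue below 0), for the 7 genes (rows). AQP1 is below the normoxia mean in the 5 samples of days 5 and 7, from -0.75 to -1.82, and ATP1B1 is highest in HT5 replicate 1 and HT7 replicate 2.

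Ratios of counts within a sample do not depend on how the libraries are scaled, and 3 ratios to SCNN1A were compared with an exact permutation test, 2-sided, of the mean difference over the days with oxygen permuted within each day. The arrangements numbered 4000, without regard to the replicate numbers, and p-values were adjusted over the 3 ratios. A ratio of counts is not a ratio of molecules, since the genes differ in length, so its change between groups is what is read. The ratios also share SCNN1A with each other, and a rise of SCNN1A alone lowers each of them.

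The CFTR to SCNN1A ratio of the HT3 samples was 0.108 to 0.166, below the 0.200 to 0.249 of the NT3 samples. On day 5 the HT5 samples had 0.0900 and 0.176, and the NT5 samples between 0.220 and 0.332. On day 7 it was 0.0562 to 0.186 in HT7 and 0.173 to 0.307 in NT7, the single day on which the groups overlapped. Averaged over the days, the ratio in hyperoxia was 0.459 of that in normoxia (mean difference -1.12 on the log2 scale, exact permutation p = 0.0005, adjusted p = 0.0015), with differences of -0.84, -1.19 and -1.34 on days 3, 5 and 7. It stayed past the threshold without any 1 sample, between -1.28 and -0.96. On days 5 and 7 SCNN1A itself was called higher, at a log2FC of 0.91 and 1.10, while CFTR was not called, at -0.28 and -0.25. Neither gene was called on day 3, at -0.54 for CFTR and 0.31 for SCNN1A. The lower ratio is thus no called fall of CFTR by itself.

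The SCNN1B to SCNN1A ratio was 2.58 to 5.14 in HT3, on both sides of the 2.84 to 3.50 of NT3. It was 1.08 and 3.04 in HT5, below the 3.13 to 3.98 of NT5, and 0.675 to 2.01 in HT7, below the 2.60 to 3.84 of NT7. Its mean difference over days was -0.81 (0.569 of normoxia, exact permutation p = 0.0258, adjusted p = 0.0386), made up of 0.18, -1.01 and -1.61 on days 3, 5 and 7. That call rested on several samples: the call was lost in 12 of the 17 fits that left out 1 sample, with adjusted p by the exact permutation test from 0.05, on the threshold, without NT5 replicate 3 to 0.0994 without HT5 replicate 2. The 5 fits that kept it left out HT3 replicate 3, HT5 replicate 1, HT7 replicate 2, NT3 replicate 1 or NT3 replicate 2. The SCNN1G to SCNN1A ratio had a mean difference of -0.0028 (exact permutation p = 0.991), with day values of 0.21, -0.03 and -0.19.

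**Figure D4:**
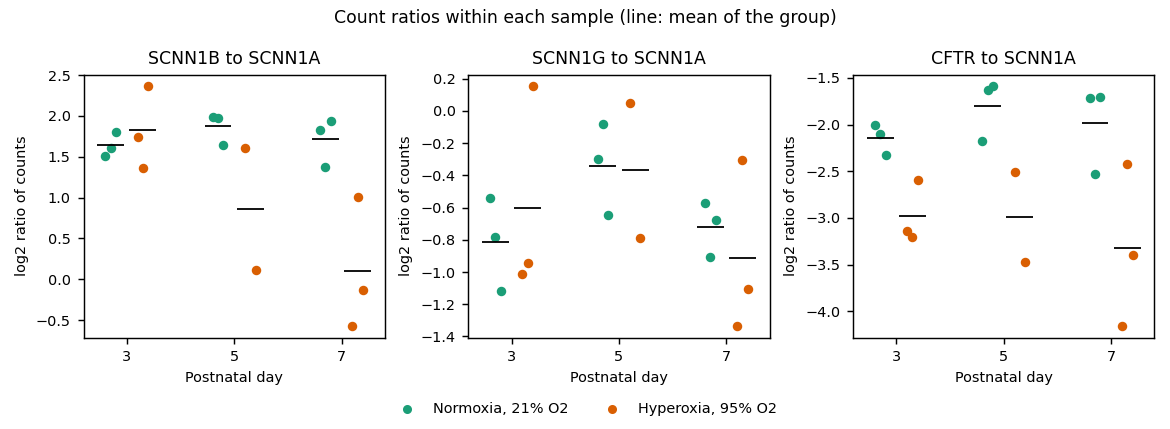
Count ratios of SCNN1B, SCNN1G and CFTR to SCNN1A within each sample on a log2 scale (vertical axes, which do not start at 0), by postnatal day, green in normoxia and orange in hyperoxia, with a line at the group mean. The CFTR ratio is lower in hyperoxia by 0.84 to 1.34 at the means of the 3 days, and the SCNN1B ratio is lower on days 5 and 7.

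Days 7 and 3 were also compared within each condition. From NT3 to NT7, 0 of the 7 genes and 0% of all entries were called by edgeR. At an unadjusted p under 0.05 there were 6.18% of all entries and 0 of the 7 genes, and DESeq2 called 39 entries, none of them these genes. From HT3 to HT7, SCNN1A was 1.55-fold higher (log2FC 0.63, SE 0.20, edgeR adjusted p = 0.0196), SCNN1B stood at 0.469 of its HT3 level (log2FC -1.09, SE 0.26, edgeR adjusted p = 0.00348) and AQP1 at 0.364 (log2FC -1.46, SE 0.23, edgeR adjusted p = 0.000208). These were 1 of 7 higher and 2 of 7 lower, in a comparison that called 44% of all entries, 22.2% and 21.8% in those directions. The SCNN1A call was lost without HT3 replicate 1, HT3 replicate 3, HT7 replicate 1 or HT7 replicate 3, where its log2FC reached a low of 0.44, and with the HT7 and HT3 samples alone in the fit (log2FC 0.61, adjusted p = 0.0658). SLC12A2 was called lower in the same comparison without HT7 replicate 2 (log2FC -0.999, adjusted p = 0.00202) and by DESeq2 (adjusted p = 0.0455).

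The change of SCNN1B from above normoxia to below it was not called by the test of days 7 and 3 against each other (difference -1.01, SE 0.36, edgeR adjusted p = 0.0615), nor was the growing rise of SCNN1A (0.79, SE 0.29, edgeR adjusted p = 0.0635). DESeq2 called both, and the fit of the groups compared alone called SCNN1B (adjusted p = 0.0299). Without HT7 replicate 2 both passed, at -1.28 for SCNN1B (adjusted p = 0.0139) and 0.98 for SCNN1A (adjusted p = 0.0117), as did SLC12A2 at -0.92 (adjusted p = 0.0279). SCNN1A also passed without HT3 replicate 2 (0.97, adjusted p = 0.0382), the HT3 library with muscle genes. With day as a number in the model, the log2FC of AQP1 changed by -0.43 per day (edgeR adjusted p = 0.00767) and that of SCNN1B by -0.25 per day (edgeR adjusted p = 0.0482), where 18.8% of all entries passed.

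The level of a gene over the 6 groups can be put in order. SCNN1A ran from a mean of 73.3 CPM in HT7 through HT5, HT3, NT3 and NT7 to 29.1 CPM in NT5, and each group overlapped the next. SCNN1B had HT3 at the top with 168 ± 37.0 CPM (SD, n = 3), clear of NT3 at 119 ± 12.9 CPM (SD, n = 3), and HT7 at the bottom with 79.0 ± 23.9 CPM (SD, n = 3). AQP1 had the 4 groups NT7, NT3, HT3 and NT5 in an overlapping series from 556 to 379 CPM and then a gap to HT5 at 173 ± 67.5 CPM (SD, n = 2) and HT7 at 160 ± 8.22 CPM (SD, n = 3), which overlapped each other. In SCNN1G, ATP1B1, CFTR and SLC12A2 each group overlapped its neighbour in the order. CFTR was highest in the 3 normoxia groups, and SCNN1G and ATP1B1 in the 3 hyperoxia groups.

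A wider list of 68 other genes of fluid transport was read beside these, of which 56 were tested: 29 channels, pumps and carriers, and 27 regulators. On day 3, 1 of the 56 was higher and 0 lower, beside 0.51% of all entries in each direction. On day 5, 8 were higher and 8 lower, beside 15.9% and 15.4% of all entries. On day 7, 17 were higher and 16 lower, beside 23.7% and 23.6% of all entries. Without NT5 replicate 2, the list had 10 calls on day 5. The day 7 count divided into 7 higher and 7 lower of the 29 channels, pumps and carriers, and 10 higher and 9 lower of the 27 regulators.

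Subunits of the Na,K-ATPase went in different directions. ATP1B3, another beta subunit of the pump, was at 148 to 211 CPM in HT7 and 44.1 to 67.1 CPM in NT7 (log2FC 1.66, SE 0.28, edgeR adjusted p = 0.000285), and was also higher on day 5 (1.41, edgeR adjusted p = 0.00353). ATP1B2, the remaining beta subunit on the list, was at 39.3 to 64.8 CPM in HT7 and 139 to 170 CPM in NT7 (log2FC -1.65, SE 0.26, edgeR adjusted p = 0.000179). Its day 5 log2FC of -0.64 was not called (SE 0.29, edgeR adjusted p = 0.11). With samples left out, the day 5 value ran from -1.42, without HT5 replicate 1, to -0.14. On day 7, ATP1B1 thus had the sign of ATP1B3, and ATP1B2 the other. FXYD6, of a family of small proteins that tune the pump, was lower on day 5 (log2FC -1.78, SE 0.20, edgeR adjusted p = 7.31e-05) and day 7 (-1.81, SE 0.17, edgeR adjusted p = 3.49e-06).

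Among the channels, AQP3, a water and glycerol channel, was at 5.93 to 16.2 CPM in HT7 and 3.10 to 3.83 CPM in NT7 (log2FC 1.76, SE 0.47, edgeR adjusted p = 0.00701). KCNE3, a partner subunit of the KCNQ1 potassium channel, was the gene of the list called on day 3, at 7.12 to 10.9 CPM in HT3 and 3.43 to 5.10 CPM in NT3 (log2FC 1.25, SE 0.25, edgeR adjusted p = 0.03). With the replicate number as a block, its adjusted p was 0.0718. On day 7 the order was the opposite, at 2.46 to 3.52 CPM in HT7 and 7.93 to 8.10 CPM in NT7 (log2FC -1.35, SE 0.25, edgeR adjusted p = 0.000515). The day 3 call of KCNE3 was also lost without HT3 replicate 1, HT3 replicate 2, NT3 replicate 2 or NT3 replicate 3, with adjusted p from 0.103 to 0.162.

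Regulators of the sodium channel were also split. NEDD4L, the ubiquitin ligase that removes ENaC from the membrane, was lower on day 7 (log2FC -0.60, SE 0.17, edgeR adjusted p = 0.0103), at 75.0 to 103 CPM in HT7 and 113 to 157 CPM in NT7. Without HT7 replicate 1 the adjusted p of NEDD4L was 0.0535. SGK1, the kinase that restrains NEDD4L, was higher on day 7 (0.87, SE 0.34, edgeR adjusted p = 0.0459), at 381 to 843 CPM in HT7 and 217 to 370 CPM in NT7. That call was lost in each fit that left out a sample of those groups other than HT7 replicate 2, with adjusted p up to 0.268, and with the HT7 and NT7 samples alone in the fit (adjusted p = 0.0593). The channel-activating protease gene PRSS8 was lower on day 5 (-0.83, SE 0.28, edgeR adjusted p = 0.0322) and had a log2FC of -0.60 on day 7 (edgeR adjusted p = 0.0509, with 0.0323 by DESeq2 and 0.0203 with the HT7 and NT7 samples alone in the fit). ST14, which encodes the protease matriptase and is also in the general epithelial list, was higher on day 5 (0.92, SE 0.31, edgeR adjusted p = 0.0355) and day 7 (1.32, SE 0.28, edgeR adjusted p = 0.00156).

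Receptors and an enzyme of hormone signals were lower on days 5 and 7. NR3C1, the glucocorticoid receptor, was at 83.7 to 134 CPM in HT7 and 248 to 256 CPM in NT7 (log2FC -1.18, SE 0.13, edgeR adjusted p = 1.05e-05), and was lower on day 5 too (-0.59, SE 0.15, edgeR adjusted p = 0.00854). HSD11B2, which inactivates glucocorticoids, was lower on day 5 (-1.62, SE 0.36, edgeR adjusted p = 0.00414) and had a log2FC of -1.56 on day 7 (SE 0.31, edgeR adjusted p = 0.00094). VIPR1, a receptor for vasoactive intestinal peptide, was at 0.666 to 13.0 CPM in HT7 and 58.1 to 223 CPM in NT7 (log2FC -4.75, SE 0.88, edgeR adjusted p = 0.000591), and had a log2FC of -4.39 on day 5 (SE 1.07, edgeR adjusted p = 0.00756). Without HT5 replicate 2, the day 5 calls of VIPR1, HSD11B2, NR3C1, PRSS8 and ST14 were lost, with adjusted p from 0.0868 to 0.33, and the list had 5 calls in place of 16. Those of ST14 and PRSS8 were also lost without NT5 replicate 2, that of ST14 without HT5 replicate 1 or NT5 replicate 3, and that of PRSS8 without NT5 replicate 1, with adjusted p from 0.0627 to 0.113. With the HT5 and NT5 samples alone in the fit, the day 5 adjusted p was 0.174 for PRSS8 and 0.0752 for ST14.

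**Figure D5:**
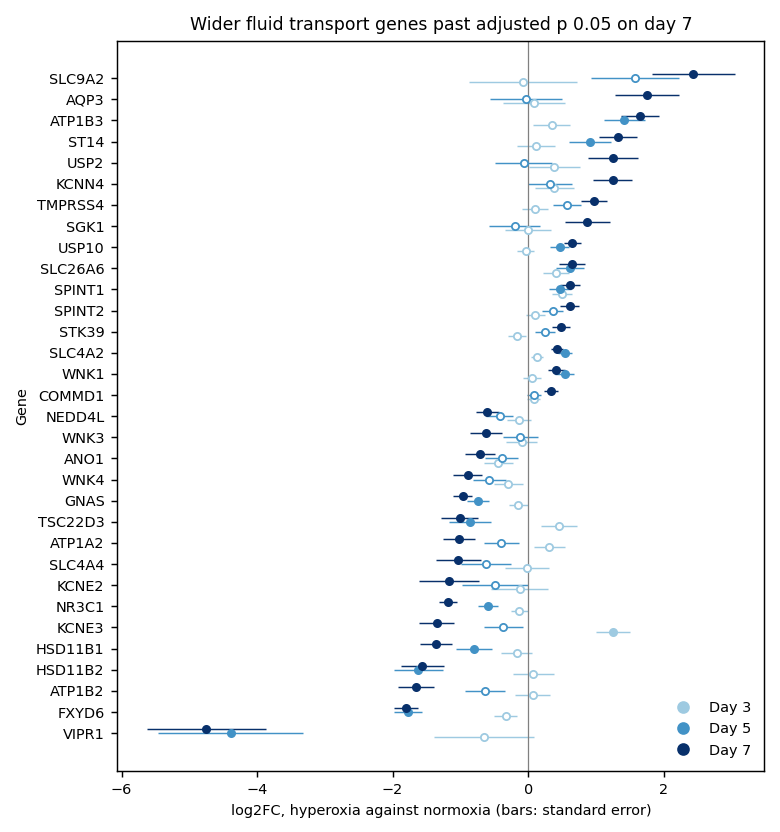
The log2FC of hyperoxia against normoxia (horizontal axis, bars for the SE) of genes of the wider list with an adjusted p under 0.05 on day 7, without 1 that is not reported here, for days 3, 5 and 7 from light to dark, filled where called. VIPR1 is at -4.75 and ATP1B3 at 1.66 on day 7, and KCNE3 is the gene that lies above 0 on day 3 and below it on day 7 with both points filled.

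An entry named AQP2, a gene of the kidney's collecting duct as it is usually known, had 147 to 634 CPM in these lungs, and it is described here after its values were seen. It lies at chr4:34118790-34131252 on the plus strand (ENSOCUG00000004635). In RefSeq's gene list of the rabbit assembly mOryCun1.1, AQP5 is the direct neighbour of AQP2. Whether reads of AQP5 fall in this entry was not tested. Its level was 207, 323 and 298 CPM in NT3, 260, 180 and 159 CPM in NT5 and 285, 147 and 175 CPM in NT7. It was 375, 360 and 426 CPM in HT3, 634 and 279 CPM in HT5, and 206, 330 and 208 CPM in HT7. Hyperoxia samples all lay above normoxia on days 3 and 5, as 12.8% and 26.5% of all entries did. On day 7, 2 of 3 hyperoxia samples lay within the normoxia range. Its log2FC was 0.49 on day 3 (SE 0.32, edgeR adjusted p = 0.491), 1.19 on day 5 (SE 0.35, edgeR adjusted p = 0.0185) and 0.29 on day 7 (SE 0.32, edgeR adjusted p = 0.465). The call of day 5 was lost without HT5 replicate 1 (log2FC 0.48, adjusted p = 0.337), NT5 replicate 2 (adjusted p = 0.0568) or NT5 replicate 3 (adjusted p = 0.0655). It was also lost with the HT5 and NT5 samples alone in the fit (adjusted p = 0.0713). As with ATP1B1, HT5 replicate 1 and HT7 replicate 2 were the highest of their groups.

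The genes whose profile over the 17 samples was nearest to each of the 7 were found by the root mean square difference of centred log2 CPM, among 11494 candidates that exclude the 7 genes. Nearest to AQP1 were ALDH2, an aldehyde dehydrogenase, at 0.225 and SLCO2A1, a prostaglandin carrier, at 0.235, where the SD of AQP1 itself over the samples was 0.733. SCNN1A had COX11 at 0.160 and RRAS2 at 0.182, SCNN1B had SLC22A23 at 0.186 and RELL1 at 0.191, and SCNN1G had PLXNA2 at 0.229 and ICAM1 at 0.234. ATP1B1 was nearest to ST3GAL5 at 0.203 and TC2N at 0.228. CFTR was nearest to CFAP251 at 0.191 and MAP3K19 at 0.217, and SLC12A2 to SNX25 at 0.147 and ETV5 at 0.174, a transcription factor gene on the type 2 list. The SD of these genes themselves was smaller than that of AQP1. It was 0.490 for SCNN1A, 0.439 for SCNN1B, 0.471 for SCNN1G, 0.521 for ATP1B1, 0.339 for CFTR and 0.350 for SLC12A2.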

How the data were processed

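The authors mapped stranded paired-end poly(A) reads of right lung homogenates and deposited raw read counts per locus, without normalization. The submitters' processing notes name FastQC, STAR 2.7.10a and OryCun2.0. The counting program and its strand setting are not given in the sources used here. 44 entries carry no human gene name.

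The tests were run in edgeR 4.0.16 (R 4.3.3), with filterByExpr, TMM factors and a robust quasi-likelihood model with 6 group means over all 17 samples, so that the 2 HT5 samples share the spread of the other groups. Log2FC used a prior count of 0.125, and the Benjamini-Hochberg adjustment covered the 13142 entries tested. Ratios had 0.5 added to each count. The edgeR test was first checked on simulated data. The alternatives were DESeq2 1.42.0, RLE factors, no filter, 1 entry per locus, fewer groups in the fit, a replicate block, a stricter threshold, day as a number, other prior counts and leaving out each sample.

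The genes and the lists were chosen with earlier results of these data known. From the wider list, the text names the 3 called genes that rose most on each day and the 3 that fell most, given an average of at least 1 log2 CPM, plus 6 genes chosen by name, of which NEDD4L, SGK1, NR3C1 and PRSS8 are reported here. Some genes that the rule names are not reported here. Deviations of samples with the same replicate number correlated at 0.166, 0.131 and 0.199 on day 3, at 0.264 and 0.141 in the 2 pairs of day 5, and at 0.174, 0.109 and 0.0695 on day 7. In the permutation tests of ratios the numbers were read as pairs on day 3 alone, as an alternative. The edgeR replicate block used them on every day, and the main tests used no pairs. These correlations do not set day 3 apart from day 5. No pair of replicates differed by as little as sampling noise.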

Additional observations from a re-analysis of the deposited data

Results flagged for a closer look

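Effects of hyperoxia that differed between days 7 and 3, by the test of the difference itself in edgeR, were found for 1 of the 7 fluid transport genes and 8 of the named genes of the wider list, 7 of them named for the size of their change and NR3C1 by its name. Of the 56 genes tested in the whole list, 5 were called higher and 10 lower, beside 9.46% and 10.9% of all entries and 20.4% in either direction. AQP1 differed by -1.72 on the log2 scale (SE 0.32, adjusted p = 0.00325), and leaving out each sample kept it between -1.87 and -1.54 with adjusted p of at most 0.0107. KCNE3 differed by -2.60 (SE 0.35, adjusted p = 0.00072), from above normoxia on day 3 to below it on day 7. In normoxia its level was 3.43 to 5.10 CPM in NT3 and 7.93 to 8.10 CPM in NT7, a log2FC of 0.997 from day 3 to day 7 that was not called (adjusted p = 0.39).

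The differences were negative for ATP1B2 (-1.72), FXYD6 (-1.47), NR3C1 (-1.05), HSD11B2 (-1.64) and VIPR1 (-4.10), and positive for ATP1B3 (1.31) and ST14 (1.21). The calls of ATP1B3 and VIPR1 were lost in some fits that left out a sample, with edgeR adjusted p up to 0.0769 and 0.0551. Of these fits, ST14 kept its call only without HT3 replicate 3 or HT7 replicate 2, with edgeR adjusted p up to 0.114 otherwise.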

How the results depend on the processing

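With each sample left out in turn, 1 to 4 of the 7 genes were called on day 5 and 1 to 4 in the comparison of days 7 and 3, and 0 to 1 and 5 to 20 genes of the wider list on days 3 and 5. In these fits the ratios ran from -1.06 to -0.56 for SCNN1B to SCNN1A and from -0.14 to 0.14 for SCNN1G to SCNN1A. The comparison of days 7 and 3 called 3 of the 7 genes by DESeq2, 2 with the compared groups alone in the fit and 2 with day as a number. The wider list on day 3 had 3 calls by DESeq2, 3 with the compared groups alone, 0 at an adjusted p under 0.01 and 0 with the replicate block. On day 5 it had 8 calls at an adjusted p under 0.01 and 9 with the compared groups alone. Over all entries, DESeq2 called 505 on day 3 against 134 by edgeR. The cause was not tested.

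With oxygen exchanged on day 3 only within pairs of the same replicate number, an alternative chosen after seeing the data, no call of the 3 ratios changed (adjusted p = 0.0319 for SCNN1B to SCNN1A, 0.00375 for CFTR to SCNN1A and 0.992 for SCNN1G to SCNN1A, exact permutation tests). With the replicate block the 7 genes had 0 calls on day 3, 2 on day 5 and 4 on day 7. On day 5 the call of SCNN1G (log2FC 0.76, adjusted p = 0.134) and that of the AQP2 entry (0.96, adjusted p = 0.0701) were lost, and of the wider list 11 genes were called. On day 3, 39 entries were called in all.

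Signs turned for values near 0. SGK1 read 0.000276 by DESeq2 and 0.000482 with the compared groups alone on day 3, and 0.00695 with the block on day 5. Left-out samples gave, on day 3, -0.25 to 0.0754 for AQP1, -0.25 to 0.44 for AQP3, -0.00957 to 0.18 for ATP1B2, -0.12 to 0.21 for HSD11B2, -0.30 to 0.00828 for NEDD4L, -0.23 to 0.17 for SGK1 and -0.24 to 0.28 for ST14. On day 5 they gave -0.87 to 0.49 for AQP3, -0.65 to 0.39 for SCNN1B, -0.80 to 0.21 for SGK1 and -0.22 to 0.52 for SLC12A2. From NT3 to NT7 they gave -0.25 to 0.0434 for ATP1B1, -0.19 to 0.19 for CFTR, -0.19 to 0.00687 for SCNN1B, -0.28 to 0.0240 for SCNN1G and -0.22 to 0.0250 for SLC12A2. The AQP2 entry ran from -0.45 to 0.14 for the comparison of days 7 and 3. The planned AQP5 to AQP1 ratio was not run, since the rule selected no AQP5 entry. The number of samples, 2 or 3 a group, limits the precision.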
